A study of Arabidopsis thaliana with 9 samples.

Results

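The direct comparison of the 35S-ASCO line of Arabidopsis thaliana with the libraries labelled RNAi-ASCO rests on 6 of the 9 RNA sequencing libraries of the series, 3 per line. All are from seedlings grown in vitro. Both lines carry a transgene aimed at AT1G67105, the gene of the long noncoding RNA ASCO. The first is labelled as an overexpression line and, after its name, is driven by the 35S promoter of cauliflower mosaic virus, which is active in most plant tissues. The second is labelled as an RNA interference knock-down. The labels give neither the number of transformation events behind each line nor the ecotype, so whatever else sets a line's plants apart goes with the transgene. The 3 replicates of a group are called biological. By their labels, 35S-ASCO seedlings were 16 days old and at Boyes growth stage 1.04, as was replicate 3 of the RNAi-ASCO line. Its replicates 1 and 2 carry an age of 4 days. For these libraries labelled age and line cannot be told apart. The wild-type (WT) libraries, also labelled 16 days, entered the fit to share its estimate of the spread and are no reference in the contrast. The libraries were chosen by their titles, and the comparison covers all 33602 gene models, of which 22719 had enough counts to be tested.

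AT1G67105 (chr1:25057479-25058264 on the plus strand of TAIR10.1, annotated as a noncoding RNA) separated the lines first. Its level was 3540, 3660 and 3650 CPM (read pairs scaled to library depth, with edgeR's TMM factors) in 35S-ASCO replicates 1, 2 and 3, and 16.9, 19.5 and 22.9 CPM in replicates 1, 2 and 3 labelled RNAi-ASCO. Levels of further genes are in the same unit and the same order of replicates. The groups lay far apart: the log2 fold change of 35S-ASCO over the other line, called the log2 ratio from here on, was 7.51 (SE 0.281, adjusted p = 1.6e-06 in edgeR's quasi-likelihood test with Benjamini-Hochberg adjustment). WT held 6.54, 3.65 and 2.48 CPM, so the libraries labelled RNAi-ASCO lay above WT, against their label, and every direction given here carries that limit. Reads of a construct and of the resident gene cannot be told apart in these counts.

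Counted pairs in the 6 libraries ranged from 33971623 to 126355312. On the first component of the 6 libraries, which took 55.3% of the variance, 35S-ASCO lay between -22.7 and -15.3 and those labelled RNAi-ASCO between 13.3 and 27.6. The library labelled 16 days lay nearest to 35S-ASCO, at 13.3. In bulk seedlings, fewer cells of a type and less RNA per cell cannot be told apart. Summed root markers, with 16 of 16 genes tested, ranged from 168 to 197 CPM in 35S-ASCO and from 180 to 195 CPM in the RNAi-ASCO-labelled libraries. Genes of seed storage proteins, oleosins and oil mobilisation (ICL and MLS) summed to 5.07 to 7.2 CPM and 5.11 to 8.47 CPM, and the storage protein genes CRU2, CRU3 and SESA3 were at 0 in all 6. Floral organ genes summed to 1.52 to 2.02 CPM and 1.98 to 2.38 CPM. These sums overlapped between the lines. The sum of 37 nuclear genes of the photosystems, antenna and Rubisco did not: it was 64100 to 66600 CPM in 35S-ASCO and 69200 to 72600 CPM in the RNAi-ASCO-labelled libraries.

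Several of the pathways that parted the lines are defence and nutrient pathways. Jasmonates are lipid hormones made from linolenic acid in the plastid and peroxisome. Their active conjugate lets the receptor COI1 mark the JAZ repressors for breakdown, which frees MYC transcription factors, and these switch on the genes of jasmonate synthesis and the JAZ genes themselves through the G-box CACGTG. Glucosinolates and triterpenes are defence compounds, the first rich in sulfur, and plants short of sulfate induce a set of genes for its uptake, its reduction and the release of sulfur from stores.

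Because a G-box is the element MYC factors are known to bind, the 250 bases upstream of the annotated start of each jasmonate gene higher in 35S-ASCO were searched for it. It was in 4 of 12 windows (33.3%), against 1603 of 22532 windows (7.11%) over all genes tested, on either strand, since the motif reads the same on both. The windows of AOS, TIFY10B (also called JAZ2), JAZ3 and JAZ7 are shown, read 5′ to 3′ along the gene's strand, with the G-box in capitals. They are chr5:17099596-17099845 (minus strand), chr1:28150447-28150696 (minus), chr3:6119457-6119706 (plus) and chr2:14572780-14573029 (plus) of the RefSeq TAIR10.1 sequence, and none overlaps another annotated gene.
AOS: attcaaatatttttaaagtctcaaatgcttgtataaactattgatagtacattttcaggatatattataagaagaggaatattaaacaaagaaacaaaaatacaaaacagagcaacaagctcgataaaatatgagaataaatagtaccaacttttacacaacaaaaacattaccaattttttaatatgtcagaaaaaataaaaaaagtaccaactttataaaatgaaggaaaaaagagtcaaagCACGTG
TIFY10B: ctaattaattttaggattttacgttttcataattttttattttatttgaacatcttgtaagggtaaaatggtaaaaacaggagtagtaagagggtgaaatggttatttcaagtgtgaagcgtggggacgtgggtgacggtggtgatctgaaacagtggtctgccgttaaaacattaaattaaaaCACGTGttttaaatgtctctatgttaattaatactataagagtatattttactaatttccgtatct
JAZ3: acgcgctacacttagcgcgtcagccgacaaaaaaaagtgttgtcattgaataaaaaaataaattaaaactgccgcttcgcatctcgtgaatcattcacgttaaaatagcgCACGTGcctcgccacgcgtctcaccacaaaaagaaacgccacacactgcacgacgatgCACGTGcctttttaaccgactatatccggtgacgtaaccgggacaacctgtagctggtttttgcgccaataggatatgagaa
JAZ7: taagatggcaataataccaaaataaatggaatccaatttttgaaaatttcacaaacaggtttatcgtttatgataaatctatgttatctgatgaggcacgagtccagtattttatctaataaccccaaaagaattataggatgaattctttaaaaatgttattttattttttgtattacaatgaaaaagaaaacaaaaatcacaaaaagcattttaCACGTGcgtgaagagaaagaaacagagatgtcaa
The G-box started 6 bases before the start of AOS, 66 before that of TIFY10B, 34 before that of JAZ7, and 140 and 82 before that of JAZ3, which held a pair. The same search in the called genes of other lists found the G-box in 3 of 3 flavonoid and phenylpropanoid windows, 1 of 3 day and evening clock windows and 0 of 6 triterpene windows. Of the other motifs searched on both strands in these 12 windows, the sulfur-response core GAGAC was in 5 (41.7%, against 25.5% of all windows). The drought-responsive element core CCGAC and the heat shock element GAANNTTC were in 1 each (8.33%), against 12.7% and 9.38%. The GCC-box GCCGCC, the W-box TTGACC and the evening element AAAATATCT were in 0, against 1.93%, 12.3% and 2.41%. A match here is a run of letters and not a measured binding site. The jasmonate genes that did not pass were not tallied apart. The part of the G-box in the difference between the lines was not tested.

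Of the 22719 genes tested, 1534 (6.75%) differed between the lines at an adjusted p of 0.05. Of these, 728 (3.2%) were higher in 35S-ASCO and 806 (3.55%) higher in the libraries labelled RNAi-ASCO. Most differences were small: the median absolute log2 ratio of the 1534 genes was 0.519, and 291 genes (1.28%) differed by at least 1, 138 (0.607%) higher in 35S-ASCO and 153 (0.673%) higher in the other line. The median log2 ratio over all genes tested was 0.0028, and 50.8% of them lay above 0. Before adjustment, 5197 genes (22.9%) had p under 0.05. In each of the 1534 called genes the lines did not overlap. For a called gene, a lack of overlap therefore adds nothing to the call. The count of 1534 fell to 675 without 35S-ASCO replicate 2, to 817 without 35S-ASCO replicate 3, to 645 without RNAi-ASCO replicate 1 and to 432 without RNAi-ASCO replicate 2. It was 1246 without 35S-ASCO replicate 1, and 1340 without RNAi-ASCO replicate 3, the library of that line labelled 16 days. Within the libraries labelled 16 days, where a lone library stands for the RNAi-ASCO line and is assumed to vary like the others, 80 genes passed, all among the 1534.

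Genes were then read in 40 lists of pathways and markers, which hold 821 tested genes, 79 of them past the threshold. In 11 lists at least 3 genes passed and the share was at least 1.5 times that of all genes. Of the 34 tested jasmonate genes 35.3% passed, of the 8 triterpene cluster genes 75%, of the 19 sulfur genes 36.8% and of the 22 abscisic acid genes 22.7%, each with every called member higher in 35S-ASCO. Of the 17 aliphatic glucosinolate genes 29.4% and of the 19 day and evening clock genes 15.8% passed, each with every called member higher in the libraries labelled RNAi-ASCO.

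**Figure D1:**
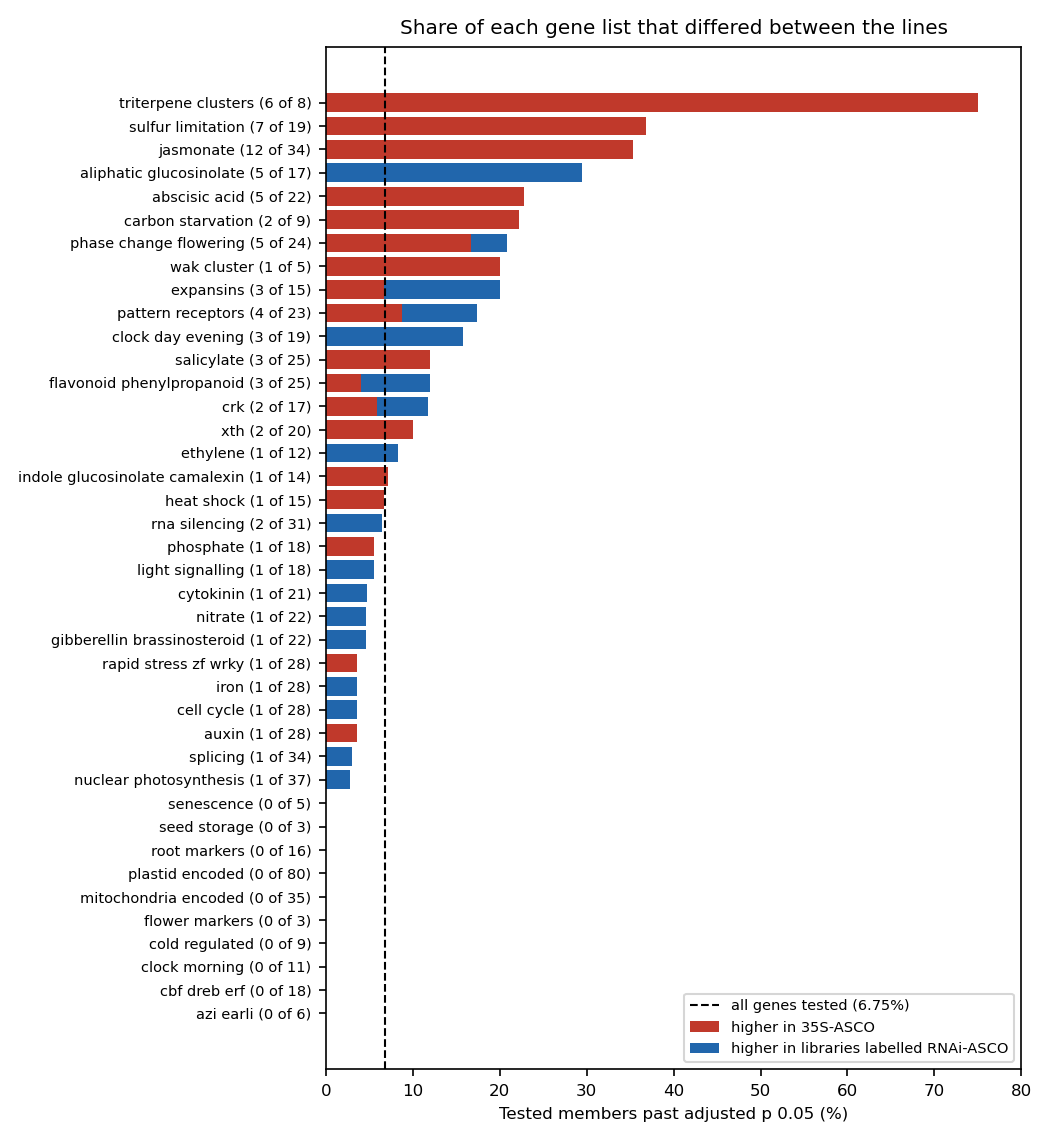
Share of each gene list past an adjusted p of 0.05 (horizontal axis, percent of tested members), with the count of called and tested genes beside each list name. Bars are split by the line in which the genes were higher, and the dashed line marks the 6.75% of all genes tested; the triterpene, sulfur and jasmonate lists reach furthest, at 75%, 36.8% and 35.3%.

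Jasmonate genes were the largest group to part the lines. Of 34 tested genes, 12 passed, all higher in 35S-ASCO (3.2% of all genes tested were called in that direction). The median log2 ratio of the 34 was 0.59, 28 were above 0, and 16 had no overlap between the lines, against 31.4% of all genes tested. JAZ8, a 35th member, had too few counts to be tested. The list was assembled with earlier results of these data known, as were the others.

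Among the synthesis genes, AOC1, an allene oxide cyclase of the plastid steps, was at 96, 69 and 83 CPM in 35S-ASCO and at 32.9, 25.8 and 30.2 CPM in the libraries labelled RNAi-ASCO. The lowest 35S-ASCO library was above the highest of the other line, and the log2 ratio was 1.48 (SE 0.136, edgeR adjusted p = 0.000369). OPR3, the peroxisomal reductase of the pathway, was at 103, 72 and 75.7 CPM against 50.4, 47 and 45.4 CPM (log2 ratio 0.82, SE 0.121, edgeR adjusted p = 0.0052). AOS, the allene oxide synthase whose window is shown above, was at 286, 277 and 268 CPM against 216, 174 and 189 CPM (0.52, SE 0.0787, edgeR adjusted p = 0.00538). These genes passed in each fit that left out 1 library. The cyclase AOC2 (log2 ratio 0.57), the ligase OPCL1 (0.83) and the lipoxygenase LOX4 (2.13) were also higher in 35S-ASCO. AOC2 missed the threshold without RNAi-ASCO replicate 2 (edgeR adjusted p = 0.0531). OPCL1 missed it without 35S-ASCO replicate 2 and without each library labelled RNAi-ASCO in turn, with edgeR adjusted p from 0.0707 to 0.107. LOX4 stood at 34.2, 13.3 and 9.42 CPM against 3.45, 3.93 and 5.6 CPM, and missed it without 35S-ASCO replicate 1 or 2, any 1 library labelled RNAi-ASCO, or WT replicate 1 (edgeR adjusted p from 0.0615 to 0.148). LOX2, a lipoxygenase of wounded leaves, had overlapping values of 1140, 1440 and 1680 CPM and 1140, 803 and 768 CPM, and did not pass (edgeR adjusted p = 0.0685). The cyclases AOC3 and AOC4 had log2 ratios of 0.11 and -0.07. About 2.7% of 50-base exon windows of AOC1 occur elsewhere in the genome, and the files drop reads with equally good alignments.

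The JAZ repressors carried the widest differences. JAZ7 was at 4.57, 11.3 and 8.34 CPM in 35S-ASCO and at 0.297, 0.546 and 0.706 CPM in the libraries labelled RNAi-ASCO. The lowest of the first was above the highest of the second, with a log2 ratio of 3.88 (SE 0.656, edgeR adjusted p = 0.00951). Without RNAi-ASCO replicate 2 its adjusted p was 0.0537. JAZ5 was at 7.42, 4.09 and 2.82 CPM against 0.862, 0.983 and 0.965 CPM (2.35, SE 0.339, edgeR adjusted p = 0.00455), and JAZ6 at 131, 133 and 106 CPM against 49.7, 43.7 and 54.9 CPM (1.32, SE 0.179, edgeR adjusted p = 0.00334). JAZ3 was at 33.5, 36.7 and 41.3 CPM against 16.1, 15.8 and 23.1 CPM (1.01, SE 0.155, edgeR adjusted p = 0.00586). In JAZ3, JAZ5 and JAZ6 the lines did not overlap and the threshold was passed in each fit that left out 1 library. TIFY7 (also called JAZ9), at 144, 120 and 123 CPM against 27, 30.7 and 45 CPM, and TIFY10B, at 66.2, 53.8 and 51.2 CPM against 33.9, 35.1 and 34.2 CPM, had log2 ratios of 1.91 and 0.73. TIFY7 missed the threshold without RNAi-ASCO replicate 2 (edgeR adjusted p = 0.0544), and TIFY10B without RNAi-ASCO replicate 1 or 2 (0.0603 and 0.0614). JAZ1, JAZ10 and JAZ12 did not pass, with log2 ratios of 0.61, 0.53 and 0.14.

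Genes of perception and the transcription factors did not pass. The receptor gene COI1 stood at 47.9, 40.3 and 40.5 CPM against 46.9, 45 and 41.9 CPM, and the conjugating enzyme gene JAR1 at 92.5, 89.4 and 84.1 CPM against 99.5, 97.2 and 90.8 CPM. MYC2, the main activator, was at 122, 67.6 and 56.9 CPM against 58.1, 60 and 38.7 CPM, where the lines overlapped and 35S-ASCO replicate 1 was the highest library (log2 ratio 0.66, edgeR adjusted p = 0.174). MYC3 and MYC4 had log2 ratios of 0.08 and -0.13. The vegetative storage protein genes VSP1 and VSP2, wound and jasmonate markers of leaves, had 0.1 and 0.67 and did not pass, nor did the hydroxylase genes CYP94B1, CYP94B3 and CYP94C1, which turn the hormone over (0.22, -0.21 and 0.23).

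**Figure D2:**
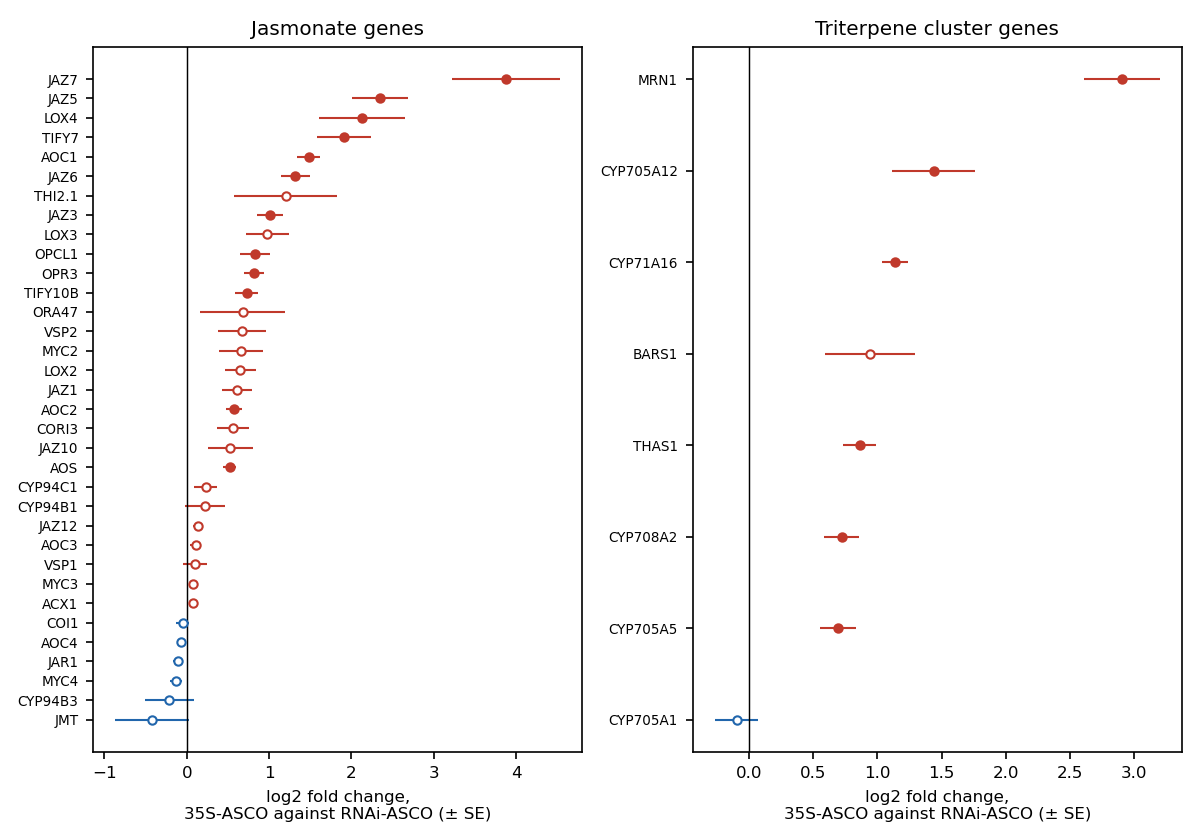
Log2 ratio of each tested jasmonate gene (left) and triterpene cluster gene (right) in 35S-ASCO against the RNAi-ASCO-labelled libraries, with SE; filled points passed an adjusted p of 0.05, red marks values above 0 and blue values below 0. JAZ7 at 3.88 and MRN1 at 2.91 lie furthest out, and no filled point lies below 0 in either panel.

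The jasmonate count of 12 was 6 without RNAi-ASCO replicate 2 and 10 with the libraries labelled 4 days alone standing for the RNAi-ASCO line. Within the libraries labelled 16 days 2 passed, where the median of the list was 0.74.

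Genes of triterpene clusters, runs of neighbouring genes that make root triterpenes, were higher in 35S-ASCO in 6 of 8 tested genes, with a list median of 0.899. All 6 belong to the marneral and thalianol clusters on chromosome 5, and the other 2 listed genes to the arabidiol and baruol pathways. The marneral synthase gene MRN1 (chr5:17053453-17058245) was at 28.9, 23.6 and 19.6 CPM in 35S-ASCO and at 3.21, 3.28 and 3.08 CPM in the libraries labelled RNAi-ASCO. Its log2 ratio of 2.91 (SE 0.294, edgeR adjusted p = 0.000598) was the widest of the list, and the lines were well apart. Its neighbour CYP71A16 (chr5:17031024-17033800), which oxidises marneral products, was at 18.5, 19.3 and 17.1 CPM against 7.55, 9.13 and 8.1 CPM (1.14, SE 0.102, edgeR adjusted p = 0.00032). CYP705A12, a cytochrome P450 gene next to CYP71A16, was at 14, 10.6 and 9.1 CPM against 3.8, 4.02 and 4.58 CPM (1.44). In the other cluster the thalianol synthase gene THAS1 (chr5:19456837-19461706) was at 266, 240 and 236 CPM against 131, 140 and 139 CPM (0.86, SE 0.131, edgeR adjusted p = 0.00591). The thalianol hydroxylase gene CYP708A2 was at 163, 135 and 140 CPM against 84.5, 89.5 and 91.6 CPM (0.72), and the desaturase gene CYP705A5 at 181, 177 and 166 CPM against 98.6, 115 and 111 CPM (0.69). All 6, like every called gene, were without overlap between the lines. The baruol synthase gene BARS1 (0.94, edgeR adjusted p = 0.146) and CYP705A1 of the arabidiol pathway (-0.1) did not pass. MRN1, CYP71A16 and THAS1 passed in each fit that left out 1 library. CYP705A12 missed the threshold in 5 such fits, without 35S-ASCO replicate 1 or 2 or any 1 library labelled RNAi-ASCO (edgeR adjusted p from 0.0584 to 0.112). CYP705A5 missed it without 35S-ASCO replicate 2, RNAi-ASCO replicate 1 or RNAi-ASCO replicate 2 (from 0.062 to 0.0833), and CYP708A2 without either of the last (0.0677 and 0.0676). The count of 6 was 3 without RNAi-ASCO replicate 1 and 3 without RNAi-ASCO replicate 2, and within the libraries labelled 16 days 1 gene passed, with a list median of 0.753. These clusters are known as root genes. Of the 16 genes of the root marker list 0 passed by edgeR and 0 by DESeq2. In that list 1 gene had an unadjusted p under 0.05, and the median was -0.048. Whether the share of root RNA differed between the lines was not tested.

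Sulfur limitation genes were higher in 35S-ASCO in 7 of 19 tested members, with a list median of 0.36. Of the 19, 17 lay above 0 and 13 had no overlap, against 50.8% and 31.4% of all genes tested. ATSDI1, a repressor of glucosinolate synthesis that is a standard marker of sulfur shortage, was at 51.5, 48.5 and 62.5 CPM in 35S-ASCO and at 26.2, 18.2 and 26.6 CPM in the libraries labelled RNAi-ASCO. Its log2 ratio was 1.2 (SE 0.211, edgeR adjusted p = 0.0108). Its relative AT1G04770 (SDI2) was at 91, 76.2 and 71.3 CPM against 64.7, 63.4 and 64.3 CPM (0.31). SHM7, which carries a serine hydroxymethyltransferase domain and is induced by sulfur shortage, was at 208, 185 and 191 CPM against 117, 105 and 121 CPM (0.77, SE 0.0954, edgeR adjusted p = 0.00197). The reductase gene APR3, of the step that reduces activated sulfate, was at 434, 374 and 410 CPM against 298, 281 and 308 CPM (0.46, SE 0.0728, edgeR adjusted p = 0.00729). Its paralogs APR2 and APR1 had log2 ratios of 0.37 and 0.19 and did not pass. AT5G26220, a glutathione-degrading cyclotransferase gene (GGCT2;1), LSU3 of the low-sulfur response family and the vacuolar sulfate exporter gene SULTR4;2 were higher by 0.98, 0.68 and 0.47. The genes of the root uptake transporters did not pass. SULTR1;2 was at 81.3, 129 and 123 CPM against 117, 123 and 122 CPM, and SULTR1;1 at 1.31, 0.757 and 0.604 CPM against 0.892, 0.808 and 0.758 CPM. EIL3 (SLIM1), the known regulator of this response, had a log2 ratio of -0.09. WT stood below both lines for ATSDI1, at 17.1, 15.5 and 9.24 CPM, and for SHM7, at 78.8, 76.6 and 97.3 CPM. For SULTR4;2, at 38.2, 40.2 and 50.3 CPM against 32.9, 30.5 and 29.6 CPM, WT was at 42.6, 40.6 and 38.6 CPM, above the RNAi-ASCO line and within the range of 35S-ASCO.

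SHM7 and APR3 passed in each fit that left out 1 library. ATSDI1 missed the threshold without RNAi-ASCO replicate 2 (edgeR adjusted p = 0.0531), SULTR4;2 without RNAi-ASCO replicate 2 or 3 (0.0856 and 0.0598), LSU3 without 35S-ASCO replicate 1 or any 1 library labelled RNAi-ASCO (0.0508 to 0.105), AT5G26220 without 35S-ASCO replicate 2 or 3 or any 1 library labelled RNAi-ASCO (0.0518 to 0.141), and AT1G04770 in 7 of the 9 fits, all but those without 35S-ASCO replicate 3 and WT replicate 3 (0.0562 to 0.16). The count of 7 was 4, 2 and 3 without RNAi-ASCO replicates 1, 2 and 3, and 0 within the libraries labelled 16 days, where the list median was 0.308. APR3, SULTR4;2 and AT1G04770 overlap genes on the opposite strand, and whether the counting used the strand is not stated, so their values are uncertain.

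**Figure D3:**
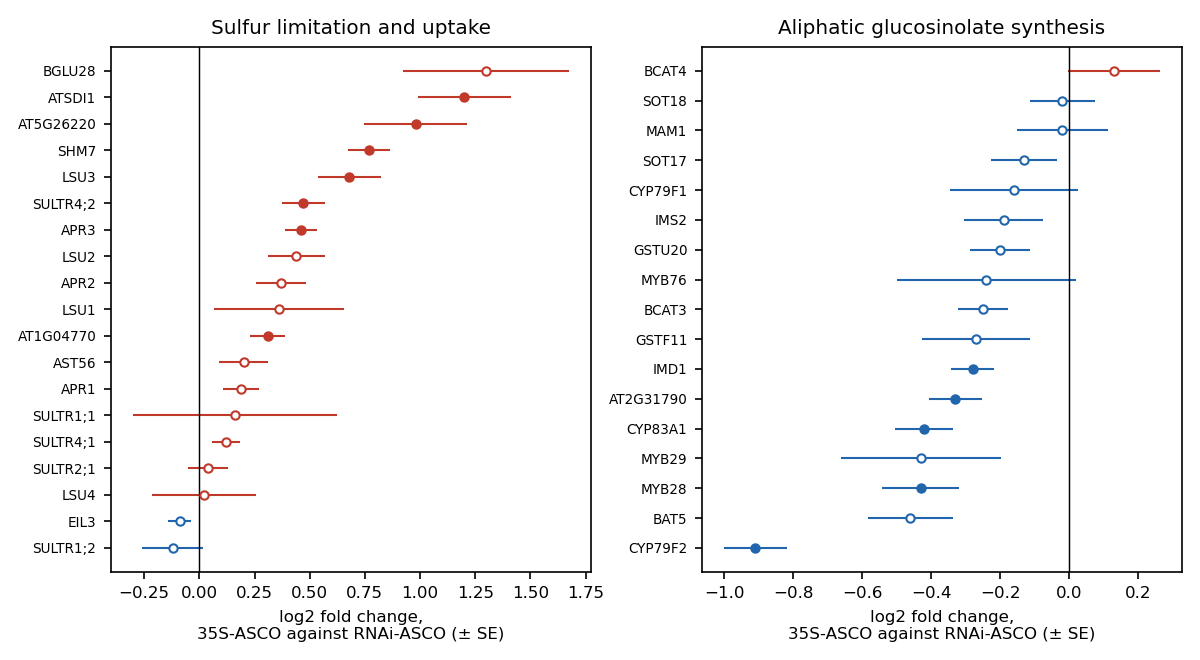
Log2 ratio with SE of each tested gene of the sulfur limitation list (left) and of aliphatic glucosinolate synthesis (right), 35S-ASCO against the RNAi-ASCO-labelled libraries; filled points passed an adjusted p of 0.05, red marks values above 0 and blue values below 0. Called genes lie above 0 in the left panel, up to 1.2, and below 0 in the right panel, down to -0.91.

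Aliphatic glucosinolate genes, which turn methionine into sulfur-rich defence compounds, went the other way: of 17 genes, 5 were higher in the RNAi-ASCO line and 0 in 35S-ASCO, with a list median of -0.252 and 1 member above 0. CYP79F2, which oxidises chain-elongated methionine, was at 19.9, 22.4 and 16.9 CPM in 35S-ASCO and at 35.2, 38.6 and 37.2 CPM in the RNAi-ASCO-labelled libraries (log2 ratio -0.91, SE 0.0913, edgeR adjusted p = 0.000576), with no overlap. Its close paralog CYP79F1 overlapped, at 117, 104 and 81.2 CPM against 123, 120 and 94 CPM (-0.16, edgeR adjusted p = 0.663), and 2.7% of CYP79F2 exon windows occur elsewhere in the genome. CYP83A1 of the next step was at 150, 153 and 129 CPM against 194, 199 and 183 CPM (-0.42, edgeR adjusted p = 0.0184). The glucosyltransferase gene AT2G31790 (UGT74C1), the chain-elongation dehydrogenase gene IMD1 and MYB28, the main activator of the pathway, had -0.33, -0.28 and -0.43. AT2G31790 and IMD1 overlap genes on the opposite strand, and 6.5% of IMD1 exon windows occur elsewhere in the genome, so both values are uncertain. Of the chain-elongation genes, MAM1 and BCAT4 had -0.02 and 0.13, and the sulfotransferase genes SOT17 and SOT18 -0.13 and -0.02. CYP79F2 passed in each fit that left out 1 library. CYP83A1 missed the threshold without 35S-ASCO replicate 3 or RNAi-ASCO replicate 1 or 2 (edgeR adjusted p from 0.0562 to 0.0868). AT2G31790 missed it without 35S-ASCO replicate 2 or 3 or RNAi-ASCO replicate 1 or 2 (0.0869 to 0.134), IMD1 without these or RNAi-ASCO replicate 3 (0.0663 to 0.12), and MYB28 without these 4 or WT replicate 1 or 3 (0.0548 to 0.187). The count of 5 was 2 and 1 without 35S-ASCO replicates 2 and 3, 1 without RNAi-ASCO replicate 1, 1 without RNAi-ASCO replicate 2, and 1 within the libraries labelled 16 days, the median there being -0.17. Of the 14 genes of indole glucosinolate and camalexin synthesis 1 passed, CYP79B3, which makes indole-3-acetaldoxime, higher in 35S-ASCO (0.47), except without any 1 35S-ASCO library or RNAi-ASCO replicate 1 or 2 (0.0503 to 0.087).

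Abscisic acid and drought genes were higher in 35S-ASCO in 5 of 22 tested members, with a list median of 0.311. The transcription factor genes RD26 and NAC3 (ANAC055), relatives induced by abscisic acid and also by jasmonate, led in stability. RD26 was at 36.9, 28.2 and 26.4 CPM against 11.7, 13.6 and 12.5 CPM (log2 ratio 1.28, SE 0.199, edgeR adjusted p = 0.00646), and NAC3 at 20, 15.9 and 19.2 CPM against 6.98, 10.3 and 8.73 CPM (1.08, SE 0.161, edgeR adjusted p = 0.00521). In both the lines stood apart, and both passed in each fit that left out 1 library. NAC019, of the same subfamily, was at 6.92, 2.86 and 2.78 CPM against 1.69, 1.27 and 0.827 CPM (1.79). The phosphatase gene HAI1, a negative regulator of the hormone's signal, was at 13.4, 7.62 and 8.05 CPM against 4.84, 4 and 3.19 CPM (1.3), and P5CS1 of proline synthesis, which overlaps a gene on the opposite strand, at 421, 302 and 266 CPM against 230, 204 and 164 CPM (0.73). The synthesis gene NCED3 overlapped, at 10.1, 4.96 and 4.74 CPM against 5.74, 11.1 and 4.1 CPM, and the ABF transcription factor genes ABF2, ABF3 and ABF4 had -0.09, 0.07 and 0.27. HAI1 and NAC019 missed the threshold without RNAi-ASCO replicate 2 (edgeR adjusted p = 0.0825 and 0.0967) or 3 (0.0573 and 0.0697). P5CS1 missed it without 35S-ASCO replicate 1 or 2 or any 1 library labelled RNAi-ASCO (0.0549 to 0.109). The count of 5 was 2 without RNAi-ASCO replicate 2 and 2 without replicate 3 of that line, and 0 within the libraries labelled 16 days, where the list median was 0.669.

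Among 23 tested genes of pattern receptors and early immune signalling 4 passed, 2 in each direction, with a list median of 0.139. FLS2, the receptor of bacterial flagellin, was lower in 35S-ASCO, at 29.8, 31.9 and 31.8 CPM against 52.3, 53.4 and 54.4 CPM (log2 ratio -0.78, SE 0.0556, edgeR adjusted p = 0.000103). RLP30, a receptor-like protein of defence against fungi and bacteria, was at 10.3, 10.8 and 12.8 CPM against 18.1, 19.2 and 19.1 CPM (-0.73, SE 0.111, edgeR adjusted p = 0.00552). LYK5, the main chitin-binding receptor kinase, lay the other way, at 8.38, 8.04 and 7.44 CPM against 4.13, 4.45 and 5.06 CPM (0.8, SE 0.1, edgeR adjusted p = 0.00213). In all 3 the lines were apart, and the threshold was passed in each fit that left out 1 library. SOBIR1, the partner kinase of receptor-like proteins, was at 118, 94.5 and 82.6 CPM against 68.7, 71.7 and 75.4 CPM (0.45, edgeR adjusted p = 0.0372) and missed it without 35S-ASCO replicate 2, any 1 library labelled RNAi-ASCO, or WT replicate 1 (0.0587 to 0.136). The co-receptor genes BAK1 and CERK1 (0.14 and 0.15), the elongation factor receptor gene EFR (0.22) and the kinase genes BIK1, MPK3 and MPK6 (0.1, 0.12 and 0.03) did not pass. FLS2 and SOBIR1 overlap genes on the opposite strand and RLP30 one on its own strand, so reads of these pairs may be shared. In the wall-associated kinase cluster WAK1 passed, 1 of 5, at 77.5, 80.9 and 81.3 CPM against 44.5, 33.5 and 37.7 CPM (1.05), except without RNAi-ASCO replicate 2 (edgeR adjusted p = 0.0579). Of its exon windows 7.6% occur elsewhere in the genome.

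Of 17 cysteine-rich receptor-like kinases, CRK30 was higher in the libraries labelled RNAi-ASCO, at 6.21, 7.75 and 8.96 CPM against 2.37, 1.63 and 1.73 CPM in 35S-ASCO (-1.98, SE 0.31, edgeR adjusted p = 0.00667), and CRK14 higher in 35S-ASCO, at 5.97, 3.03 and 2.19 CPM against 1.25, 1.03 and 1.24 CPM (1.69, edgeR adjusted p = 0.0325). CRK30 passed in each fit that left out 1 library, and CRK14 missed the threshold without 35S-ASCO replicate 1 or 2 or any 1 library labelled RNAi-ASCO (0.0607 to 0.133). The share of these kinases called was 11.8%, against 6.75% of all genes tested. Of the 17, 14 lay above 0, with a median of 0.503, and DESeq2 called 6. The count of 2 was 5 without 35S-ASCO replicate 3 and 1 without 35S-ASCO replicate 1 or 2 or RNAi-ASCO replicate 1 or 2. CRK36 had a log2 ratio of 3.28 that came from 1 library: it was at 14.1, 0.869 and 0.604 CPM in 35S-ASCO and at 0.684, 0.546 and 0.465 CPM in the other line (edgeR adjusted p = 0.107). ARCK1 showed the same, at 5.76, 0.785 and 0.324 CPM against 0.297, 0.197 and 0.344 CPM. Salicylate genes passed in 3 of 25 (12%, against 6.75% of all genes tested), all higher in 35S-ASCO. They were SARD1, an activator of salicylate synthesis that overlaps a gene on the opposite strand (1.13), DMR6, a salicylate hydroxylase (0.39), and ACD6, a membrane protein that raises defence (0.77). The salicylate marker genes PR5 and BGL2 (PR2) had -0.69 and -0.08 and did not pass, and PR1 was too low to be tested. SARD1 missed the threshold without 35S-ASCO replicate 1 or 2, RNAi-ASCO replicate 1 or 2, or WT replicate 1 (edgeR adjusted p from 0.0586 to 0.146). DMR6 missed it without 35S-ASCO replicate 2 or any 1 library labelled RNAi-ASCO (0.0533 to 0.0738), and ACD6 without any 1 library of either line or WT replicate 1 (0.0633 to 0.17). The count of 3 was 1 without 35S-ASCO replicate 1, 1 without WT replicate 1, and 0 without 35S-ASCO replicate 2, RNAi-ASCO replicate 1 or RNAi-ASCO replicate 2.

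**Figure D4:**
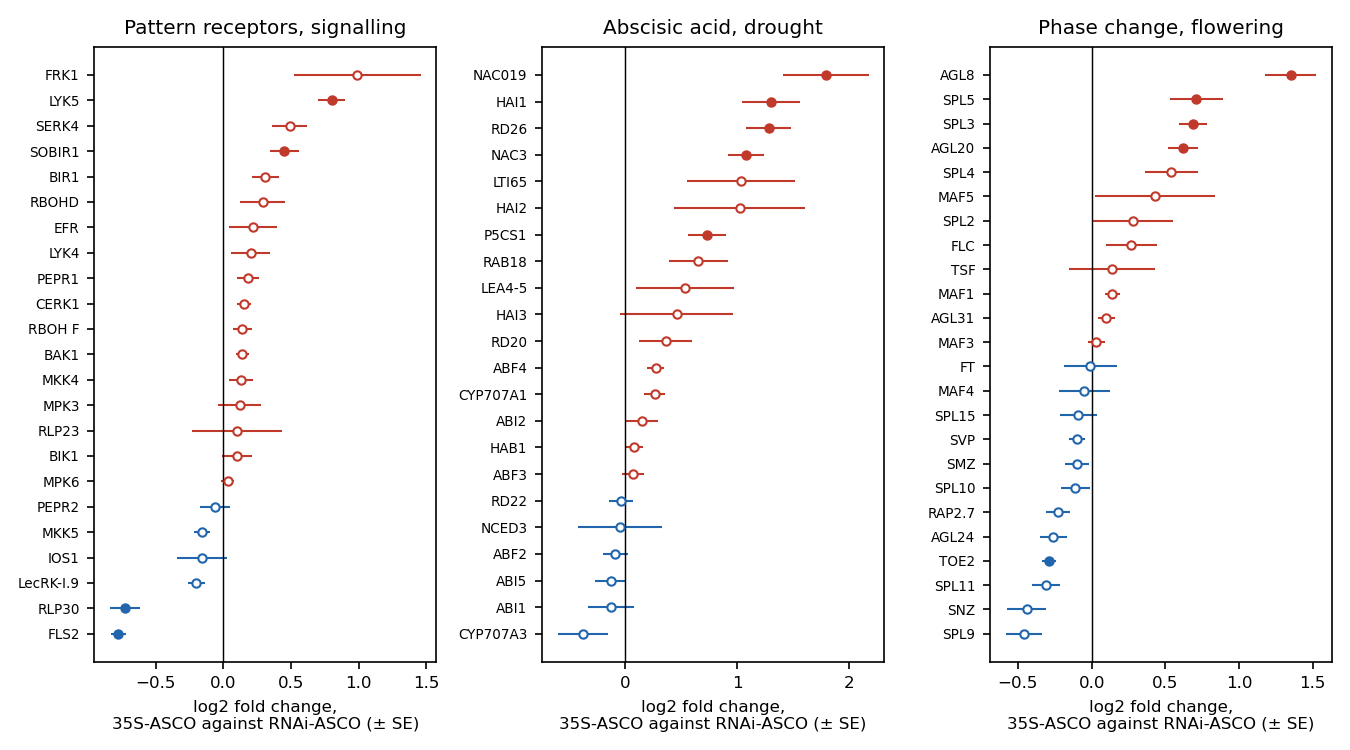
Log2 ratio with SE of each tested gene of the pattern receptor (left), abscisic acid (middle) and phase change and flowering (right) lists, 35S-ASCO against the RNAi-ASCO-labelled libraries; filled points passed an adjusted p of 0.05, red marks values above 0 and blue values below 0. FLS2 at -0.78 and RLP30 at -0.73 stand apart at the low end of the left panel, and AGL8 at 1.35 at the high end of the right panel.

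Genes of phase change and flowering bear on the labelled ages, since the SPL factors climb as a shoot leaves its juvenile phase. Of 24 tested, 4 were higher in 35S-ASCO and 1 in the libraries labelled RNAi-ASCO, with a list median of 0.011. The share called was 20.8%, against 6.75% of all genes tested. AGL8 (FRUITFULL) was at 3.55, 4.18 and 4.12 CPM against 1.31, 1.44 and 1.84 CPM (log2 ratio 1.35, SE 0.175, edgeR adjusted p = 0.0026). SPL3 was at 15.4, 15.5 and 16.4 CPM against 8.62, 10.6 and 10.1 CPM (0.69, SE 0.0942, edgeR adjusted p = 0.00351), and the flowering integrator AGL20 (SOC1) at 51.5, 48.3 and 48.5 CPM against 36.9, 29 and 30.9 CPM (0.62, SE 0.101, edgeR adjusted p = 0.00792). TOE2, a floral repressor of the juvenile phase, lay the other way, at 38.4, 36.1 and 37.7 CPM against 46.2, 47.2 and 44.3 CPM (-0.29, SE 0.0477, edgeR adjusted p = 0.00792). These genes passed in each fit that left out 1 library. SPL5, the remaining call (0.71, edgeR adjusted p = 0.0439), missed the threshold in 8 of the 9, all but that without WT replicate 3. For SPL3 and AGL20 the RNAi-ASCO library labelled 16 days lay between those labelled 4 days. For AGL8, at 1.84 CPM, it was the highest of its line, and for TOE2, at 44.3 CPM, the lowest. In both it was the library nearest to 35S-ASCO. That the lines did not overlap holds for every called gene. SPL9 had -0.46 and FT -0.01, and neither passed. Within the libraries labelled 16 days 0 of the list passed by edgeR, and the log2 ratios were 1.09 for AGL8, 0.64 for SPL3 and 0.68 for AGL20. The part of labelled age in these differences was not tested. TOE2 shares 7.0% of its exon windows with other sites and SPL3 and SPL5 each overlap a gene on the opposite strand.

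Day and evening clock genes passed in 3 of 19, all higher in the libraries labelled RNAi-ASCO, with a list median of -0.182. GI, which with the FKF1 family times flowering, was at 40.4, 32.5 and 27 CPM in 35S-ASCO and at 69, 63.6 and 50.5 CPM in the RNAi-ASCO-labelled libraries (log2 ratio -0.87, SE 0.162, edgeR adjusted p = 0.0134). CO, the photoperiod activator of flowering, was at 3.29, 2.89 and 2.57 CPM against 5.05, 4.89 and 4.32 CPM (-0.7), and PCL1 (LUX) of the evening complex at 38.5, 39 and 36.1 CPM against 54.2, 52.4 and 46.7 CPM (-0.43). In GI, CO and PCL1 the library labelled 16 days was the lowest of its line and the nearest to 35S-ASCO. As in every called gene, the lines did not overlap. Within the libraries labelled 16 days the log2 ratios were -0.6 for GI, -0.57 for CO and -0.3 for PCL1. The part of labelled age in these clock differences was not tested. TOC1, ELF3 and ZTL had 0.05, -0.02 and -0.04. Of the 19 genes, 3 lay above 0, against 50.8% of all genes tested, and those that did not pass reached down to -1.18. GI missed the threshold without 35S-ASCO replicate 2 or RNAi-ASCO replicate 1 or 2 (edgeR adjusted p from 0.0541 to 0.0623), CO without RNAi-ASCO replicate 2 (0.0579), and PCL1 without any 1 of the 35S-ASCO libraries or RNAi-ASCO replicate 1 or 2 (0.0511 to 0.109). The count of 3 was 6 without 35S-ASCO replicate 1, 1 without 35S-ASCO replicate 2, 1 without RNAi-ASCO replicate 1, 0 without RNAi-ASCO replicate 2 and 8 without RNAi-ASCO replicate 3, and 0 within the libraries labelled 16 days. Morning clock genes passed in 0 of 11 by edgeR and 1 by DESeq2, with 3 at an unadjusted p under 0.05; edgeR called 2 without RNAi-ASCO replicate 3 and 1 without 35S-ASCO replicate 1. The hour of harvest is not in the labels, and CO and PCL1 overlap genes on the opposite strand.

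The other lists held few calls. Expansin, flavonoid and carbon starvation genes passed at 20%, 12% and 22.2%, above the 6.75% of all genes tested. Alpha-expansins, which loosen cell walls, passed in 3 of 15: EXPA6 and EXP3 were higher in the libraries labelled RNAi-ASCO (-0.33 and -0.45) and EXPA17 in 35S-ASCO (1.09). That count was 5 without 35S-ASCO replicate 1 and 0 without 35S-ASCO replicate 2 or 3 or RNAi-ASCO replicate 1 or 2. Phenylpropanoid and flavonoid genes passed in 3 of 25: the regulators MYB90 and MYB12 were higher in the libraries labelled RNAi-ASCO (-2.51 and -0.56) and PAL4 in 35S-ASCO (0.31), while the pigment synthesis genes TT4, TT5 and DFR had -0.04, -0.03 and 0.08. This count was 0 without 35S-ASCO replicate 2, 0 without RNAi-ASCO replicate 1, and 1 without either RNAi-ASCO replicate 2 or 3. EXPA6, EXP3, EXPA17, MYB90, MYB12 and PAL4 each missed the threshold in 3 to 5 of the 9 fits that left out 1 library, that without RNAi-ASCO replicate 1 among them (edgeR adjusted p from 0.0513 to 0.132 over all of these misses). ASN1, a dark-induced asparagine synthetase gene of the 9 carbon starvation genes, was at 74.2, 52.7 and 52.2 CPM against 3.54, 12.4 and 20.8 CPM (log2 ratio 2.25, SE 0.46, edgeR adjusted p = 0.0197). It missed the threshold without 35S-ASCO replicate 2 (0.0503) and without RNAi-ASCO replicate 2 (0.0903), and the library labelled 16 days was the highest of its line. IVD of leucine breakdown was the other call of that list (0.23), lost without any 1 35S-ASCO library, RNAi-ASCO replicate 1 or 2, or WT replicate 1 (0.0521 to 0.13). All 9 genes were above 0, and the count of 2 was 4 without RNAi-ASCO replicate 3, 4 without WT replicate 3, 0 without 35S-ASCO replicate 2 or RNAi-ASCO replicate 2, and 1 without 35S-ASCO replicate 1 or 3, RNAi-ASCO replicate 1 or WT replicate 1. ASN1 overlaps a gene on the opposite strand.

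In further lists a single gene passed with all libraries. For the genes named next, the share of the list called was 2.7% to 6.67%, against 6.75% of all genes tested. Higher in 35S-ASCO were ZF2 of 28 rapid stress genes (0.48), IAA14 of 28 auxin genes (0.52), the endoplasmic reticulum chaperone gene BIP3 of 15 heat shock genes (1.51) and PHO2 of 18 phosphate genes (0.31). The libraries labelled RNAi-ASCO were higher in IPT3 of 21 cytokinin genes (-0.71), ROT3 of 22 gibberellin and brassinosteroid genes (-0.33), PIF7 of 18 light signalling genes (-0.46), KRP2 of 28 cell cycle genes (-0.31), NAS4 of 28 iron genes (-0.96), NIA1 of 22 nitrate genes (-0.72), LHCB4.3 of 37 nuclear photosynthesis genes (-0.38) and EMB2770, a spliceosome component, of 34 splicing genes (-0.33). WAK1 and CYP79B3, described above, were likewise the single calls of their lists, with shares of 20% and 7.14%. Fitted on the 6 libraries alone, 10 of the 37 photosynthesis genes passed. In the main fit the median of these 37 was -0.173. Of them, 2 lay above 0 and 19 had no overlap between the lines, against 50.8% and 31.4% of all genes tested. In RNA silencing 2 of 31 passed (6.45%), the histone demethylase gene IBM1 (-0.31) and AGO3 (-0.83). Of 20 xyloglucan-modifying XTH genes 10% passed, XTH25 (2.76) and XTH19 (0.4), against 6.75% of all genes tested. Of the genes in this paragraph, IPT3 and IBM1 missed the threshold without RNAi-ASCO replicate 2 alone (edgeR adjusted p = 0.0595 and 0.0586), and ROT3 without it or 35S-ASCO replicate 3 (0.0912 at most). The other genes of this paragraph except WAK1 and CYP79B3 missed it in 3 to 7 of the 9 fits, RNAi-ASCO replicate 2 among the libraries left out each time. Other counts in these lists rose when 1 library was left out: without WT replicate 3, heat shock to 4, auxin and nitrate to 3, and splicing, gibberellin and brassinosteroid, indole glucosinolate and wall-associated kinase genes to 2. Without 35S-ASCO replicate 1, cytokinin and photosynthesis genes rose to 4, iron and rapid stress genes to 3, and light signalling and phosphate genes to 2. Photosynthesis genes rose to 5 without WT replicate 1 and 4 without WT replicate 2. Without WT replicate 2, iron genes rose to 3 and auxin, nitrate and splicing genes to 2, and without WT replicate 1 auxin and iron genes to 2. Without RNAi-ASCO replicate 3, auxin and light signalling genes rose to 3 and cytokinin and rapid stress genes to 2. The RNA silencing count was 0 without RNAi-ASCO replicate 2, and the XTH count 0 without 35S-ASCO replicate 2 or RNAi-ASCO replicate 1 or 2. ROT3 and PIF7 overlap genes on the opposite strand.

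Lists with 0 calls by edgeR were the CBF, DREB and ERF factors (18 genes, 2 by DESeq2, 5 at an unadjusted p under 0.05), cold-regulated genes (9 genes, 0 by DESeq2, 1 unadjusted) and the AZI1 and EARLI1 cluster (6 genes, 0 by DESeq2, 1 unadjusted). Of seed storage (3 genes) and floral genes (3 genes), 0 passed by either tool, with 0 at an unadjusted p under 0.05. Of 5 senescence genes, 80 plastid-encoded genes and 35 mitochondria-encoded genes, edgeR and DESeq2 each called 0, with 1, 3 and 1 at an unadjusted p under 0.05. Leaving out 1 library gave 2 calls among the CBF, DREB and ERF factors without 35S-ASCO replicate 1 or 3, and 1 without RNAi-ASCO replicate 2 or WT replicate 3. It gave 1 call among cold-regulated and 1 among senescence genes without WT replicate 3, and 1 among plastid-encoded genes without WT replicate 1 or 2.

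Beyond the lists, genes were named where they had the largest differences among called genes without overlap whose mean over the 6 libraries was at least 1 CPM, a limit that leaves out lower genes with wider differences, such as the pseudogene AT3G25815 (-9.96). MRD1, named for its lowered level in a methionine-overaccumulating mutant, was at 0.34, 0.056 and 1.13 CPM in 35S-ASCO and at 28.3, 25.8 and 29.4 CPM in the RNAi-ASCO-labelled libraries (log2 ratio -5.58, SE 0.496, edgeR adjusted p = 0.00032). AT3G54160, an F-box protein gene, was at 0.807, 0.757 and 0.96 CPM against 11.8, 10.3 and 11.8 CPM (-3.73, SE 0.16, edgeR adjusted p = 4.2e-06). These 2 and AT3G29634, AT4G10200, AT2G05290, AT1G49610, AT2G05280 and AT1G31570 (from -4.49 to -2.97) were the 8 largest in that direction above this limit. Each passed in every fit that left out 1 library. Of the exon windows of AT1G31570 and AT3G29634, 12.8% and 6.0% occur elsewhere in the genome, so both values are uncertain. In 35S-ASCO the largest above the limit after AT1G67105 and JAZ7 were FAMT, a farnesoic acid methyltransferase gene, at 6.7, 2.16 and 1.94 CPM against 0.416, 0.546 and 0.0861 CPM (3.46, SE 0.677, edgeR adjusted p = 0.0166), and AT2G07042, at 1.74, 2.21 and 2.14 CPM against 0.119, 0.306 and 0.293 CPM (3.00, SE 0.273, edgeR adjusted p = 0.000362). FAMT missed the threshold without RNAi-ASCO replicate 1 or 2 (0.0619 and 0.0531). XTH25, at 0.91, 4.29 and 6.31 CPM against 0.208, 0.655 and 0.723 CPM (2.76, edgeR adjusted p = 0.0458), missed it without 35S-ASCO replicate 2 or 3, any 1 library labelled RNAi-ASCO, or WT replicate 1 or 2 (0.0596 to 0.157). WT was at 2.53, 2.73 and 2.05 CPM for AT2G07042 and at 5.73, 3.87 and 2.4 CPM for XTH25, above every library labelled RNAi-ASCO. For FAMT, WT was at 0.22, 0.17 and 0.504 CPM, below every 35S-ASCO library.

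Counted by levels alone, 9 genes had their lowest library in 1 line at 1 CPM or more and at least 8 times the highest of the other. AT1G67105 was the one high in 35S-ASCO. The 8 high in the libraries labelled RNAi-ASCO were MRD1, AT3G54160, AT1G49610, AT4G10200 and the pseudogenes AT2G05280, AT2G05290, AT3G25815 and AT3G29634. AT2G05280 and AT2G05290 overlap on the same strand of chromosome 2, and MRD1 overlaps AT1G53490 on the opposite strand. AT3G25815 had 0 pairs in all 3 35S-ASCO libraries against 60, 85 and 128 pairs, at least 41.7-fold higher over a floor of 3 pairs per library, and 57.1% of its exon windows occur elsewhere in the genome. For 7 of the 8, AT3G25815 included, WT was under 1 CPM in each library, as 35S-ASCO was except for MRD1 in replicate 3 (1.13 CPM), and for AT3G54160 WT was at 0.808, 1.12 and 0.764 CPM.

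**Figure D5:**
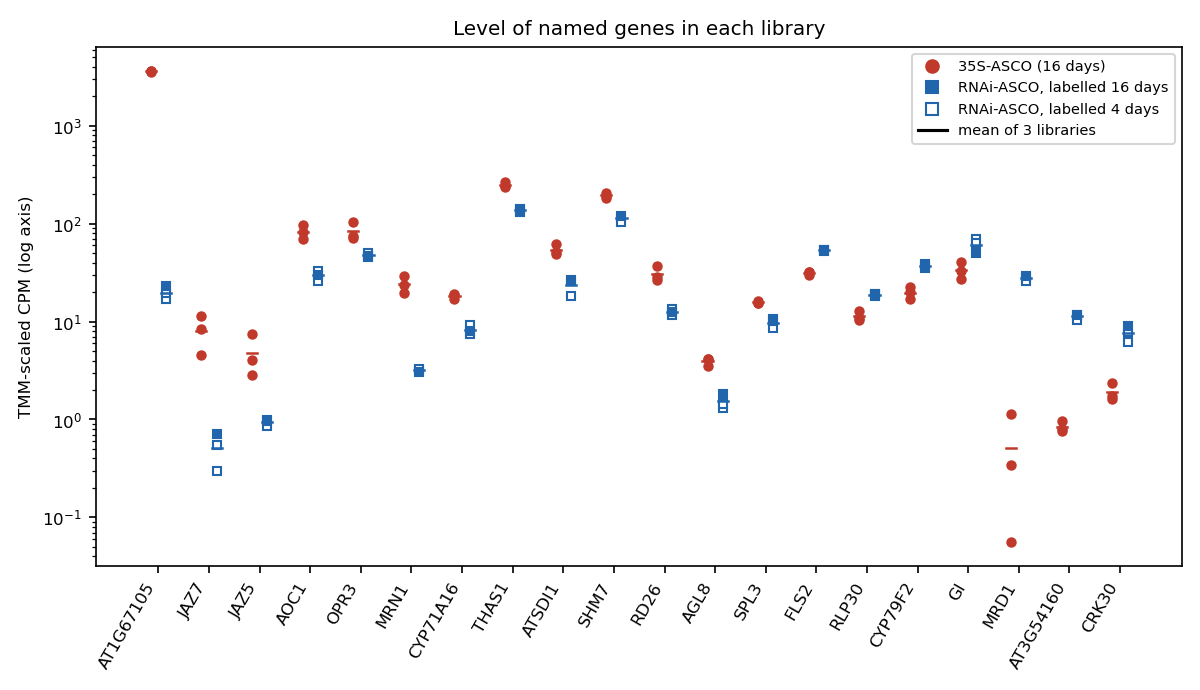
Level of 20 named genes in each of the 6 libraries, in TMM-scaled CPM on a log axis; circles are 35S-ASCO, filled squares the RNAi-ASCO library labelled 16 days, open squares those labelled 4 days, and lines the means of 3 libraries. In each gene shown the lines do not overlap, and AT1G67105 at 3540 to 3660 CPM and MRD1 at 0.056 to 1.13 CPM mark the extremes of 35S-ASCO.

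Leaving out RNAi-ASCO replicate 2 took 40 of the 71 genes named by rule besides AT1G67105 below the threshold, RNAi-ASCO replicates 1 and 3 took 28 and 17, 35S-ASCO replicates 1, 2 and 3 took 9, 26 and 20, and WT replicates 1 and 2 took 7 and 4. Of the 72 genes named by rule, 31 passed the threshold in each of the 9 fits that left out 1 library, 55 with the libraries labelled 4 days alone standing for the RNAi-ASCO line, and 13 with the library labelled 16 days alone.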

How the data were processed

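RNA of 9 seedling libraries was measured by poly(A)-selected, stranded, paired-end sequencing, per the labels' protocols. The authors deposited, per gene model, counts of reads and of read pairs. The count of pairs holds properly paired mates on 1 model, per the file headers, and reads with equally good alignments were removed. TopHat2, Bowtie2 and the build TAIR10 are named in the submitters' processing notes. Between 86.83% and 92.8% of parsed pairs were counted per library, and the pairs summed to 27044702 to 126355312 over the 9 libraries. A gene at 0 was set against a floor of 3 pairs per library, which covers counting error only.

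Pair counts were tested with edgeR 4.0.16 in R 4.3.3 (glmQLFit and glmQLFTest, TMM scaling, filterByExpr by group) on all 9 libraries with genotype as the only factor, the contrast being 35S-ASCO minus the libraries labelled RNAi-ASCO. Benjamini-Hochberg adjustment ran over 22719 genes, and 0.05 was the threshold. The fitting code was tested on simulated data. Replicates are labelled biological, and no 2 libraries of a group agreed within sampling noise. Group and replicate number came from the sample titles.

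The comparison, the 40 gene lists (739 entries, 3 dropped for lack of a match between symbol and identifier, and the plastid-encoded and mitochondria-encoded genes by identifier) and the rules were chosen with earlier results of these data known. The naming rule takes AT1G67105, up to 8 genes each way with the largest fold change among called genes without overlap whose mean over the 6 libraries reached 1 CPM, and from each list called genes without overlap by smallest p, up to 4 where at least 3 were called at 1.5 times the share of all genes and up to 1 otherwise. A gene named outside this rule was chosen after its values were seen. Of the genes the rule names, 1 is not reported here.

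Names, coordinates and upstream windows of 250 bases came from RefSeq TAIR10.1, where 32835 of 33602 identifiers (97.7%) were found. Shared sequence was searched with 50-base exon windows. Alternatives were DESeq2 1.42.0, other scalings (relative log expression, upper quartile), other filters, the 6 libraries alone, the replicate number as a block, thinned counts, single-read counts, other thresholds, labelled age and leaving out each library.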

Additional observations from a re-analysis of the deposited data

How the results depend on the processing

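The count of 1534 genes was within 1.5 times with DESeq2 (2205), relative log expression (1529) or upper-quartile scaling (1506), no filter (1486), at least 1 CPM in 3 libraries (1475), the 6 libraries alone (1802), thinned counts (1243) and single reads (1513). Upper-quartile scaling gave 677 genes higher in 35S-ASCO and 829 higher in the other line. A threshold of 0.01 left 397 genes and a further minimum of 1 for the size of the log2 fold change 291, both by construction. The count was 80 with only the libraries labelled 16 days, of which 22 were higher in 35S-ASCO and 58 in the libraries labelled RNAi-ASCO. That fit holds fewer libraries, and 1 of them stands for a line. Leaving out 1 library gave from 432 to 1928 genes. The log2 fold change of AT1G67105 stayed between 7.30 and 7.53 under the other settings and between 7.41 and 7.63 when 1 library was left out.

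With the replicate number as a block the count was 1355, 1194 of them among the 1534. Libraries with the same number did not deviate together (correlations of 0.0763, -0.0232 and 0.0557), so the numbers were not taken as pairs. Under the block 7 of 71 named genes missed the threshold, and 11 jasmonate, 6 triterpene and 3 aliphatic glucosinolate genes were called. Not every library correlated best with its own number: 35S-ASCO replicate 2 did so with RNAi-ASCO replicate 3 (0.135).

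None of the 72 genes named by rule changed direction under the settings tried. In each of them the lines did not overlap, so fits that leave out libraries keep the direction by construction. For those fits the outcome is no test of stability. Depth limits the lowest genes: the floor of 3 pairs is 0.111 CPM in the shallowest of the 9 libraries.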

Other observations

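The 5 genes that follow were picked one by one after their values were seen, belong to no list, and stand for no group. Picked in this way, they add no support to the jasmonate result above. ILL6, an amidohydrolase that cleaves jasmonate conjugates, was at 27.2, 26.2 and 31 CPM in 35S-ASCO replicates 1, 2 and 3 and at 9.93, 10.8 and 12.1 CPM in replicates 1, 2 and 3 labelled RNAi-ASCO (log2 ratio 1.36, edgeR adjusted p = 0.000103). CLH1, a jasmonate-inducible chlorophyllase, was at 120, 101 and 102 CPM against 60.9, 50.2 and 42 CPM (1.08, edgeR adjusted p = 0.00325), and ARGAH2, a jasmonate-inducible arginase, at 16.2, 15.8 and 18.6 CPM against 9.01, 6.75 and 6.6 CPM (1.19, edgeR adjusted p = 0.00122). TAT3, a jasmonate-inducible tyrosine aminotransferase, was at 1.91, 1.93 and 1.27 CPM against 0.267, 0.131 and 0.172 CPM (3.19, edgeR adjusted p = 0.00797). PGIP2, an inhibitor of fungal polygalacturonases, was at 45.7, 47.2 and 45.8 CPM against 13.7, 15.1 and 16.6 CPM (1.61, edgeR adjusted p = 7.6e-05). As in every called gene, the lines did not overlap in any of them.

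In the other direction, CPL1, a phosphatase of the RNA polymerase II tail, had the tightest groups among those singled out here: 37.4, 37 and 39.4 CPM in 35S-ASCO and 97.4, 97.9 and 96.1 CPM in the RNAi-ASCO-labelled libraries (log2 ratio -1.36, edgeR adjusted p = 1.6e-06). HEI10, a meiotic crossover factor whose gene AT1G53490 overlaps MRD1 on the opposite strand, was at 2.07, 1.37 and 2.16 CPM against 13.1, 11.6 and 10.6 CPM (-2.61, edgeR adjusted p = 5.83e-05). Since the use of strand in the counting is not stated, reads from the stretch that HEI10 and MRD1 share cannot be told apart.

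By annotated class, also looked at after the values were seen, 70 of 567 tested pseudogenes (12.3%) were called, 50 of them higher in the RNAi-ASCO line and 20 in 35S-ASCO. Of protein-coding genes 1418 of 21538 (6.58%) were called, 686 higher in 35S-ASCO and 732 in the other line. Of lncRNA genes 20 of 190 were called (10.5%, 5 and 15), and of other noncoding RNA genes 17 of 136 (12.5%, 13 and 4). Of snoRNA genes 5 of 36 (13.9%) were called, so a raised share was not particular to pseudogenes. The pseudogene AT3G25815, with 0 pairs in 35S-ASCO, entered the test through the line where it was high. The cineole synthase gene AT3G25820 (TPS-CIN), a neighbour of the pseudogene AT3G25815, was at 1.94, 1.68 and 2.19 CPM in 35S-ASCO and 0.594, 0.328 and 0.465 CPM in the RNAi-ASCO-labelled libraries (2.1, edgeR adjusted p = 0.00222), while the pseudogene was at 0 in 35S-ASCO. AT3G25820 has a near-identical copy, AT3G25830, so its value is uncertain.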
